A study of Mus musculus with 18 samples.

Results

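The lysosome and V-ATPase genes described here are 44 genes that were chosen by name, and all 44 were found among the 55450 genes of the deposited table. They comprise 10 proteases, 8 glycosidases or sulfatases, 3 genes of lipid handling, 4 lysosomal membrane proteins, the autophagy receptor gene Sqstm1 with the progranulin gene Grn, the transcription factor genes Tfeb and Tfe3, 2 accessory subunits of the V-ATPase, 5 subunits of its V0 sector and 8 subunits of its V1 sector. All 44 passed the filter on low values, which kept 12025 genes for testing. RNA was sequenced from mouse bone marrow-derived macrophages (BMDMs) in 18 libraries, 3 in each of 6 groups. The wild type (WT) groups were non-treated cells, cells with monosodium urate (MSU) crystals at 0.2 mg/ml, cells with apigenin at 25 µM and cells with both, named WT non-treated, WT + MSU, WT + apigenin and WT + MSU + apigenin. The knockout groups, CD38KO non-treated and CD38KO + MSU, came from mice lacking Cd38 in all cells and received no apigenin. Every culture had been grown for 7 days with medium conditioned by L929 cells, primed for 24 hours with 20 ng/ml of GM-CSF, and then held for 6 hours with or without the additions. The study's methods place both genotypes on the C57BL6/J background, with donors of either sex, and no source used here gives the donors' age, their number or whether marrow was pooled, so p-values measure only the spread between these libraries.

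The lysosome is the acidic compartment in which macrophages break down what they have engulfed, and MSU crystals reach it by phagocytosis. The V-ATPase is the proton pump that acidifies it, with the V0 sector spanning the membrane and the V1 sector on the cytosolic side hydrolysing ATP. TFEB and TFE3 belong to the MiT/TFE family of transcription factors, which switch on many lysosomal and V-ATPase genes through an E-box element with the sequence CACGTG.

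Facts of the whole series bear on these genes in a few places. Total counts were 51058336 to 83209648 per library, and the 44 genes took 6.06% to 10.8% of them. Cd38 was at 5.08 to 19.5 FPKM (counts normalized by the authors for transcript length and library depth) in the 12 WT libraries and at 0.0782 to 0.283 FPKM in the 6 CD38KO libraries, without overlap. For the 6 apigenin libraries, titles and treatment tag were swapped with respect to MSU. The titles were followed here, and comparisons that average both apigenin groups do not depend on that choice. Replicate 3 of every WT group stood apart from replicates 1 and 2: the summed level of 3 genes that differ between mouse strains (Ifi202b, Gbp2b and Cd1d2) was 21.9 to 438 CPM (counts relative to the normalized library total) in the 8 WT libraries numbered 1 or 2, 0.0677 to 0.685 CPM in the 4 numbered 3 and at most 1.2 CPM in CD38KO. The 8 macrophage markers summed to 10749 CPM or more in every library, and the 3 T cell markers to at most 0.151 CPM.

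Compared per transcript length, the levels of the 44 genes spanned a wide range in WT non-treated BMDMs. Psap, which encodes the precursor of the saposins that assist sphingolipid breakdown, was the highest at 6173 ± 412 FPKM (SD, n = 3). It was followed by the protease genes Ctsd at 3059 ± 453 FPKM, Ctss at 2400.0 ± 1156 FPKM and Ctsb at 1564 ± 70.8 FPKM. Psap did not overlap with Ctsd, whereas Ctsd and Ctss overlapped across the 3 libraries. Lamp1, an abundant glycoprotein of the lysosomal membrane, was at 1085 ± 37.7 FPKM. The lowest levels belonged to Tfeb at 7.75 ± 2.41 FPKM, Atp6v1h at 11.8 ± 2.39 FPKM and Sgsh at 12.8 ± 3.02 FPKM. Of the 43 pairs of neighbours in this order, 35 overlapped between libraries.

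RefSeq promoter windows (GRCm38.p6, from 250 bases before to 50 after an annotated start) were matched for 38 of the 44 genes. CACGTG was present in a window of 13 of the 38, or 34.2%, against 8.09% of all 27025 genes with a window. The extended form TCACGTGA was present in 6 of 38, or 15.8%, against 1.12% of all genes. Both forms are palindromes, so a match holds for both strands, and every TCACGTGA contains a CACGTG. A match is a description of the sequence and does not show binding. The 6 windows printed below hold CACGTG, in capitals, and belong to genes that rose, fell or did not pass with apigenin.
Lamp1, chr8:13158911-13159210, plus strand: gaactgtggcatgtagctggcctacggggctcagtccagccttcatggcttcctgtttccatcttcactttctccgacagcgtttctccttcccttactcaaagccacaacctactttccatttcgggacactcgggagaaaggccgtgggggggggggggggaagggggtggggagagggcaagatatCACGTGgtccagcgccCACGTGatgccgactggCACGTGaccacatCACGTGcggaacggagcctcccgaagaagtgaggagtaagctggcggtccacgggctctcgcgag
Ctsa, chr2:164833523-164833822, plus strand: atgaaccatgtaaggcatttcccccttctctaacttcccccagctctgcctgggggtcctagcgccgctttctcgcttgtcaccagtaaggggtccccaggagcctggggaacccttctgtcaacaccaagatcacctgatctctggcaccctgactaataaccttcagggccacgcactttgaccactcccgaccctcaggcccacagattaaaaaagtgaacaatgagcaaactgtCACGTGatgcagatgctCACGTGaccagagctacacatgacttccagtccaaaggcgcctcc
Ctsd, chr7:142387778-142388077, minus strand: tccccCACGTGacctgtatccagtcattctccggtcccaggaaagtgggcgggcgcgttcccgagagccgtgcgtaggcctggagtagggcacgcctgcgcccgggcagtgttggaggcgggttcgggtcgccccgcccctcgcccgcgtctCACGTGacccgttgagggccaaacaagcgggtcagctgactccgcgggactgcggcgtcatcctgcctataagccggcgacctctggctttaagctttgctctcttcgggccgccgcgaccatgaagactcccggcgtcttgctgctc
Atp6v1a, chr16:44139210-44139509, minus strand: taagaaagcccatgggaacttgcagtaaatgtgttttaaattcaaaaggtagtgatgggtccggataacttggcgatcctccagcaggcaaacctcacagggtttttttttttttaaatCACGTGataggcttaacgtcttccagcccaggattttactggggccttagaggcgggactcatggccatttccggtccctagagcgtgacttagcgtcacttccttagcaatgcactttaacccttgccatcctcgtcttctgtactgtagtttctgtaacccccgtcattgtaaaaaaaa
Gla, chrX:134600956-134601255, minus strand: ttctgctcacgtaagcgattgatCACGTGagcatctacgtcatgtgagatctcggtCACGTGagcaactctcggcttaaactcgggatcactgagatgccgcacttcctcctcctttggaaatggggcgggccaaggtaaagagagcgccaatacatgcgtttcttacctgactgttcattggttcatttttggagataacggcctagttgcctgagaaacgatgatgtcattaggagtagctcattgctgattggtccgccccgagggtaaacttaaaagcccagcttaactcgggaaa
Atp6v0d1, chr8:105566015-105566314, minus strand: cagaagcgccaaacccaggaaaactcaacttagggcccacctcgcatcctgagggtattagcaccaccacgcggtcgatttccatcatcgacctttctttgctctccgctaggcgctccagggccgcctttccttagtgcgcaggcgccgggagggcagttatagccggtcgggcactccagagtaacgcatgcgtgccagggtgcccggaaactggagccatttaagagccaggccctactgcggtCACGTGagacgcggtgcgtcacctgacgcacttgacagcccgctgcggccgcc
The Lamp1 window held 4 copies of CACGTG and none of TCACGTGA. The printed windows of Ctsa and Gla each held 2 copies of TCACGTGA, whereas another Ctsa window, chr2:164832622-164832921, held no CACGTG. Neither Tfeb nor Tfe3 had a copy in any of its windows, and the same held for Sqstm1 and Grn.

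The comparison of WT + MSU with WT non-treated asked how the crystals changed these genes in macrophages. Sqstm1 was the single gene of the 44 that rose at least 2-fold, and most of the others did not pass the test. Called genes here had an adjusted p below 0.05 (edgeR quasi-likelihood test, Benjamini-Hochberg) and a log2 fold change (log2FC) no smaller than 1 in size, whereas rose and fell mean an adjusted p below 0.05 at any size. By that rule 1 of 44 was called higher (2.03% of all genes tested) and none was called lower (1.55% of all genes). At any size of change, 2 rose (3.66% of all genes) and 1 fell (3.36% of all genes). The median log2FC of the 44 was 0.03, beside -0.034 over all genes.

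Sqstm1 (chr11:50199366-50210827 in GENCODE M21 on GRCm38, as for the other gene positions given) encodes p62, a receptor that ties ubiquitinated cargo to the autophagy membrane. Its level was 821, 803 and 879 CPM without the crystals and 2465, 2531 and 2205 CPM with them. Every MSU library was above every non-treated one, with a log2FC of 1.52 ± 0.18 (SE, adjusted p = 0.000333). Because these are bulk samples, a change in RNA per cell and a change in the share of a cell type cannot be told apart.

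Atp6v1d, the D subunit in the central stalk of V1, was at 140, 137 and 179 CPM without MSU and rose to 228, 206 and 265 CPM with it. The log2FC was 0.62 ± 0.14 (adjusted p = 0.0188), and the libraries did not overlap. Of the 8 V1 subunits, 7 had values above 0, with a median of 0.46, but Atp6v1d alone passed. Atp6v1h, a regulatory subunit of V1, had 87.1, 86.3 and 138 CPM against 168, 156 and 231 CPM, which gave a log2FC of 0.84 ± 0.28 without passing the test (adjusted p = 0.0984). Scarb2, the LIMP-2 receptor that carries glucocerebrosidase to the lysosome, fell from 220, 213 and 215 CPM to 155, 138 and 156 CPM. The log2FC was -0.53 ± 0.12 (adjusted p = 0.0153), and the 3 MSU libraries lay below the 3 others.

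The proteases, glycosidases and lipid genes did not pass under MSU. Lgmn, the asparaginyl endopeptidase legumain, came nearest among the proteases, with 1392, 1421 and 1495 CPM against 1029, 1009 and 1033 CPM. The groups did not overlap, and the adjusted p of 0.0509 stood just outside the threshold at a log2FC of -0.49 ± 0.14. The gene listed lowest in this comparison was Sgsh, a sulfatase of heparan sulfate breakdown, at 51.9, 57.2 and 40.7 CPM against 23.1, 18.7 and 19.8 CPM. Its libraries did not overlap either, but the log2FC of -1.28 ± 0.78 did not pass (adjusted p = 0.402). The SE comes from a fit of all 6 groups. For Sgsh the wide error came with WT + apigenin replicate 3, a library outside this comparison that is described below. The test therefore says little about Sgsh under MSU, and the called count without that library is given in the closing section. Ctsb and Ctsd, cathepsin B and D, had log2FC of 0.26 ± 0.18 and 0.06 ± 0.26. Tfeb and Tfe3 had log2FC of -0.30 ± 0.30 and -0.02 ± 0.13. Of the 101 tested genes in 6 other lists of lysosomal and autophagy genes, 3 were called higher and 1 lower under MSU, beside the 2.03% and 1.55% of all genes given above. The 3 were Mcoln2, a lysosomal cation channel gene (log2FC 1.54 ± 0.32), Optn, an autophagy receptor gene (1.46 ± 0.41), and Cst7, the cystatin F gene (2.63 ± 0.69), and the lower one was Tpcn1, a channel gene of the endolysosome (-1.40 ± 0.21).

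In CD38KO BMDMs the same comparison again called Sqstm1 alone (1 of 44 higher, with 1.52% of all genes called higher). At any size 2 of 44 rose (2.06% of all genes), and none fell. The lowest log2FC, -1.06 among the glycosidases and the sulfatase, did not pass. The called count was 2 when WT + apigenin replicate 3, a library outside this comparison, was left out. Sqstm1 was at 695, 776 and 744 CPM without MSU and 1504, 2367 and 1586 CPM with it. The groups did not overlap, and the log2FC was 1.30 ± 0.18 (adjusted p = 0.00185). Atp6v1d rose by a log2FC of 0.59 ± 0.14 (adjusted p = 0.0349), from 204, 176 and 181 CPM to 254, 310 and 281 CPM. The difference between the genotypes in the response to MSU was tested as an interaction, which called none of the 44 and 0.0% of all genes, with 1 of the 44 at an unadjusted p under 0.05 and none called by DESeq2. For Sqstm1 the interaction was -0.22 ± 0.25 on the log2 scale, and for Atp6v1d the genotypes' log2FC differed by less than either SE.

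**Figure D1:**
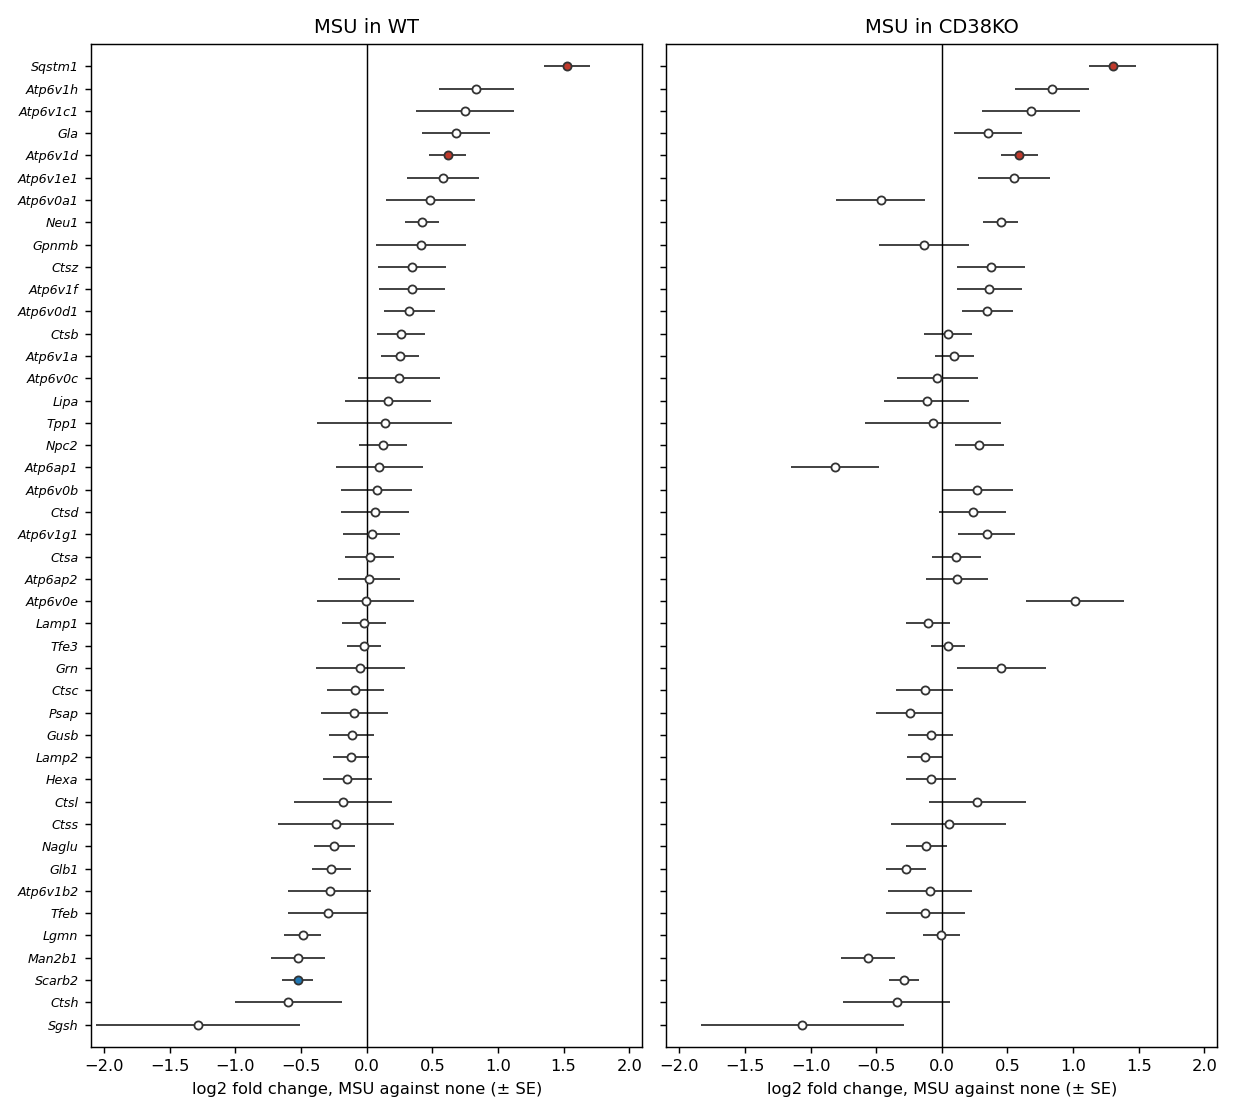
Log2 fold change of each of the 44 genes with MSU against none in WT (left) and CD38KO (right), with bars of 1 SE and genes ordered by the WT value. Filled points passed an adjusted p of 0.05 (red higher, blue lower) and open points did not. Sqstm1 is the highest point in both genotypes, at 1.52 and 1.30, while open points lie as low as -1.28 in WT and -1.06 in CD38KO.

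Apigenin is a plant flavonoid that the study used as an inhibitor of CD38, and comparing cells with and without it gave the widest changes in these genes. Averaged over both arms (with and without MSU, 6 libraries against 6), all 10 proteases, 4 of 8 glycosidases or sulfatases, Lamp1, Lamp2 and the accessory subunits of the V-ATPase were higher with apigenin, while Tfeb, Tfe3, Sqstm1 and most V1 subunits were lower. Of the 44 genes, 19 were called higher and 4 lower. Over all genes, 17.7% were called higher and 26.1% lower, a split between the directions unlike that of the 44. The 44 were chosen with earlier results of these data known, so this difference is a description only. At any size, 26 rose and 9 fell, and 9 did not pass. The corresponding shares of all genes were 32.2% and 36.4%. The median log2FC was 0.81 for the 44 and -0.045 for all genes.

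These directions are relative to the TMM scaling (trimmed mean of M-values), which sets most genes near no change. With library totals in its place the median of all genes moved to -0.75. The calls among the 44 became 1 higher (Atp6ap1) and 9 lower, beside 1.79% and 41.5% of all genes. At any size, 15 of 44 then rose and 16 fell, beside 10.9% and 54.6% of all genes. Over all genes, the share of calls that were higher went from 40.5% to 4.13%. Changes with apigenin are therefore given relative to the average gene, and the scale-free comparison of gene classes inside each library follows the single genes. The TMM factors moved with the treatment: they were 0.666 to 0.837 where apigenin was given and 1.06 to 1.32 elsewhere. So did the share of counts from the mitochondrial genome, 9.60% to 13.3% against 3.50% to 6.61%. The summed macrophage markers were at 45373 to 60867 CPM with apigenin and 18178 to 22936 CPM in WT without it, and the summed fibroblast markers at 1526 to 6704 CPM and 574 to 3827 CPM. The part of these shifts in the changes below was not tested.

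**Figure D2:**
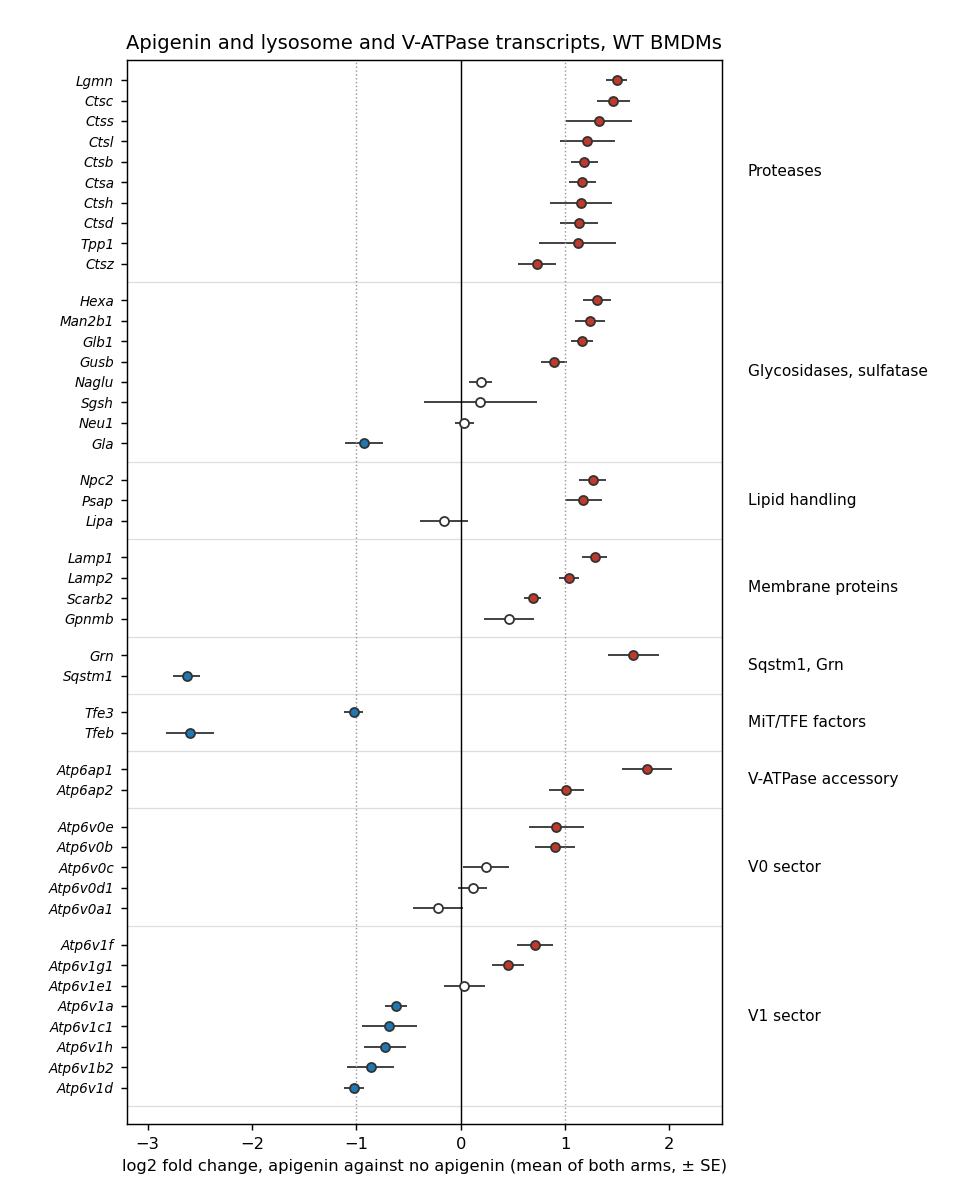
Log2 fold change with apigenin (mean of both arms, 6 against 6 WT libraries) for the 44 genes, grouped by role and with bars of 1 SE. Filled points passed an adjusted p of 0.05 (red higher, blue lower), open points did not, and dotted lines mark a log2FC of 1 in size. All 10 proteases lie to the right of 0, whereas 5 of 8 V1 subunits are filled to the left.

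All 10 proteases rose with apigenin, 9 of them past the fold threshold, with a median log2FC of 1.18. Under library totals 5 of the 10 passed, all of them higher, and the median was 0.48. Ctsb, the lysosomal cysteine protease cathepsin B, was at 8359, 8194 and 8732 CPM in non-treated WT, 11828, 8144 and 10309 CPM in WT + MSU, 17934, 18880 and 21472 CPM in WT + apigenin and 26626, 19786 and 21418 CPM in WT + MSU + apigenin. The 6 apigenin libraries lay above the 6 others (log2FC 1.18 ± 0.13, adjusted p = 1.73e-06). Ctsd, the aspartic protease cathepsin D, was at 5628, 5581 and 8197 CPM in non-treated WT, 7488, 5542 and 7236 CPM in WT + MSU, 11376, 11648 and 17842 CPM in WT + apigenin and 17747, 11977 and 16467 CPM in WT + MSU + apigenin. Again no apigenin library reached down to the others (log2FC 1.13 ± 0.18, adjusted p = 7.27e-05).

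Lgmn (chr12:102394084-102439813), which processes cathepsins, rose as well. With apigenin it reached 3772, 3408 and 3151 CPM without MSU and 3754, 3500 and 2899 CPM with MSU, against the 1009 to 1495 CPM of the 6 WT libraries without apigenin given above. Its log2FC was 1.49 ± 0.10 (adjusted p = 2.33e-08). Ctsc, cathepsin C, which activates granule proteases, was at 496, 403 and 336 CPM in non-treated WT, 381, 427 and 354 CPM in WT + MSU, 1255, 1149 and 904 CPM in WT + apigenin and 1142, 1235 and 916 CPM in WT + MSU + apigenin. The apigenin libraries did not overlap with the others, and replicate 3 was the lowest of both apigenin groups (log2FC 1.46 ± 0.16, adjusted p = 1.34e-06). The other rises were 1.32 ± 0.32 for Ctss, 1.21 ± 0.27 for Ctsl, 1.17 ± 0.13 for the carboxypeptidase gene Ctsa, 1.15 ± 0.29 for the aminopeptidase gene Ctsh, 1.12 ± 0.37 for Tpp1, a tripeptidyl peptidase gene, and 0.73 ± 0.18 for the carboxypeptidase gene Ctsz. For Ctsz the value was 0.02 under library totals.

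Among the glycosidases and the sulfatase, 4 rose, 1 fell and 3 did not pass, with a median log2FC of 0.54 that turned to -0.14 under library totals. Man2b1, a lysosomal alpha-mannosidase, was at 846, 715 and 558 CPM in non-treated WT, 508, 453 and 512 CPM in WT + MSU, 1395, 1461 and 1197 CPM in WT + apigenin and 1637, 1464 and 1202 CPM in WT + MSU + apigenin. The lowest apigenin library was above the highest of the others (log2FC 1.24 ± 0.15, adjusted p = 3.46e-06). Hexa, the alpha subunit of beta-hexosaminidase, rose by 1.31 ± 0.14, Glb1, the lysosomal beta-galactosidase, by 1.16 ± 0.11 and Gusb, the beta-glucuronidase, by 0.90 ± 0.12. Gla, alpha-galactosidase A, went the other way. It was at 148, 143 and 211 CPM in non-treated WT, 248, 229 and 328 CPM in WT + MSU, 84.8, 93.9 and 156 CPM in WT + apigenin and 105, 79.2 and 150 CPM in WT + MSU + apigenin. The replicate 3 libraries with apigenin, at 156 and 150 CPM, overlapped with replicates 1 and 2 of WT non-treated, and within each number the apigenin library was the lower one. Its log2FC was -0.93 ± 0.18 (adjusted p = 0.00041).

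The genes that did not pass in this class were Neu1, a sialidase (0.04 ± 0.09), Naglu, an enzyme of heparan sulfate breakdown (0.19 ± 0.11), and Sgsh, the heparan sulfatase (0.19 ± 0.54). The wide error of Sgsh came with 1 library, WT + apigenin replicate 3, at 0.670 CPM beside 37.9 and 46.9 CPM in the other libraries of its group, a gene singled out after its values were seen. Of the lipid genes, Npc2, the lumenal cholesterol carrier, rose by 1.26 ± 0.13 and Psap by 1.18 ± 0.18. Lipa, the lysosomal acid lipase, did not pass (-0.16 ± 0.23).

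The membrane glycoproteins Lamp1 and Lamp2 both rose. Lamp1 (chr8:13159161-13175338) was at 2524, 2357 and 2898 CPM in non-treated WT, 2737, 2202 and 2733 CPM in WT + MSU, 5548, 5601 and 6568 CPM in WT + apigenin and 7878, 5890 and 6263 CPM in WT + MSU + apigenin. There was no overlap, and the log2FC was 1.29 ± 0.12 (adjusted p = 3.68e-07). Lamp2, which also serves chaperone-mediated autophagy, was at 554, 530 and 599 CPM in non-treated WT, 528, 466 and 553 CPM in WT + MSU, 1113, 1042 and 1362 CPM in WT + apigenin and 1078, 940 and 1095 CPM in WT + MSU + apigenin. It too was separated by treatment (log2FC 1.04 ± 0.10, adjusted p = 3.84e-07). Scarb2 rose by 0.69 ± 0.08, a value that turned to -0.01 under library totals. Gpnmb, a transmembrane glycoprotein of stressed and lipid-laden macrophages, was at 5191, 4556 and 6667 CPM in non-treated WT, 7677, 4868 and 9361 CPM in WT + MSU, 6571, 6261 and 13411 CPM in WT + apigenin and 8281, 5859 and 11925 CPM in WT + MSU + apigenin. Its groups overlapped and it did not pass (log2FC 0.46 ± 0.24, adjusted p = 0.102).

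Grn and Sqstm1 moved in opposite directions. Grn, whose product progranulin is processed inside the lysosome, was at 858, 739 and 690 CPM in non-treated WT, 792, 672 and 745 CPM in WT + MSU, 1442, 2139 and 1720 CPM in WT + apigenin and 3764, 3687 and 1999 CPM in WT + MSU + apigenin. All apigenin libraries were above the others, and those with MSU differed among themselves, with replicate 3 lowest (log2FC 1.65 ± 0.25, adjusted p = 3.23e-05). Sqstm1 was at 214, 280 and 252 CPM in WT + apigenin and at 191, 197 and 247 CPM in WT + MSU + apigenin, below the 803 to 2531 CPM of the WT libraries without apigenin. Its log2FC was -2.62 ± 0.13 (adjusted p = 3.01e-09), the mean of -1.75 ± 0.18 without MSU and -3.50 ± 0.19 with it.

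The transcription factor genes fell. Tfeb (chr17:47737030-47792419) was at 27.7, 49.9 and 39.6 CPM in non-treated WT, 30.7, 28.3 and 36.4 CPM in WT + MSU, 5.85, 10.7 and 4.20 CPM in WT + apigenin and 5.35, 3.97 and 5.44 CPM in WT + MSU + apigenin. The highest apigenin library was below the lowest of the others (log2FC -2.59 ± 0.23, adjusted p = 1.97e-07). Tfe3 was at 154, 154 and 174 CPM in non-treated WT, 163, 160 and 152 CPM in WT + MSU, 70.0, 90.0 and 67.8 CPM in WT + apigenin and 74.1, 92.3 and 76.9 CPM in WT + MSU + apigenin. It was likewise separated (log2FC -1.02 ± 0.09, adjusted p = 2.62e-07). These are transcript levels, while the activity of both factors is set largely by phosphorylation and by where the protein resides in the cell, which were not measured here. The 13 genes with a CACGTG in a promoter window had 8 higher, 2 lower and 3 not passed under apigenin, with a median log2FC of 0.92. The 25 without it had 15 higher, 4 lower and 6 not passed, with a median of 0.73. Of the windows printed above, those of Lamp1, Ctsa and Ctsd belong to genes that rose, those of Atp6v1a and Gla to genes that fell, and that of Atp6v0d1 to one that did not pass.

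The V-ATPase did not move as a unit. Its accessory subunit genes rose, led by Atp6ap1 (chrX:74297097-74304721), whose product Ac45 guides assembly and sorting of the pump. Atp6ap1 was at 169, 158 and 159 CPM in non-treated WT, 158, 158 and 203 CPM in WT + MSU, 396, 427 and 489 CPM in WT + apigenin and 954, 905 and 432 CPM in WT + MSU + apigenin. The groups with apigenin lay above, and WT + MSU + apigenin replicate 3 was far below its partners (log2FC 1.79 ± 0.24, adjusted p = 1.26e-05). Atp6ap2, the prorenin receptor gene, rose by 1.01 ± 0.17.

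Of the 5 V0 subunits, Atp6v0b and Atp6v0e rose, each by 0.91 on the log2 scale (SE 0.19 and 0.26), and 3 did not pass. The median was 0.25, and it turned to -0.48 under library totals, where 3 fell and none rose. The proteolipid gene Atp6v0c (0.25 ± 0.22) is uncertain because its 2 processed copies in the table took 0.409% to 8.72% of the combined counts and reads could be split between them. Atp6v0d1 had a log2FC of 0.12 ± 0.14 and Atp6v0a1 one of -0.22 ± 0.24.

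Of the 8 V1 subunits 5 fell, 2 rose and 1 did not pass, with a median of -0.65, which was -1.36 under library totals, where 6 fell and none rose. Atp6v1d (chr12:78840725-78861638) was at 83.2, 94.3 and 95.0 CPM in WT + apigenin and at 95.3, 86.0 and 102 CPM in WT + MSU + apigenin, below the 137 to 265 CPM of the 6 WT libraries without apigenin. The log2FC was -1.02 ± 0.10 (adjusted p = 5.86e-07). Atp6v1h was at 66.5, 65.9 and 126 CPM in WT + apigenin and at 77.7, 59.3 and 108 CPM in WT + MSU + apigenin. Its replicate 3 libraries with apigenin reached above the 86.3 and 87.1 CPM of WT non-treated, and the log2FC was -0.72 ± 0.20 (adjusted p = 0.0051). The catalytic A subunit and the non-catalytic B subunit, which together form the ring of V1, were at -0.62 ± 0.11 for Atp6v1a and -0.86 ± 0.23 for Atp6v1b2, and Atp6v1c1, a subunit that links V1 to V0, fell by 0.68 on the log2 scale. In contrast Atp6v1f and Atp6v1g1 rose by 0.71 ± 0.18 and 0.46 ± 0.15, the latter turning to -0.25 under library totals, and Atp6v1e1 did not pass (0.04 ± 0.19).

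**Figure D3:**
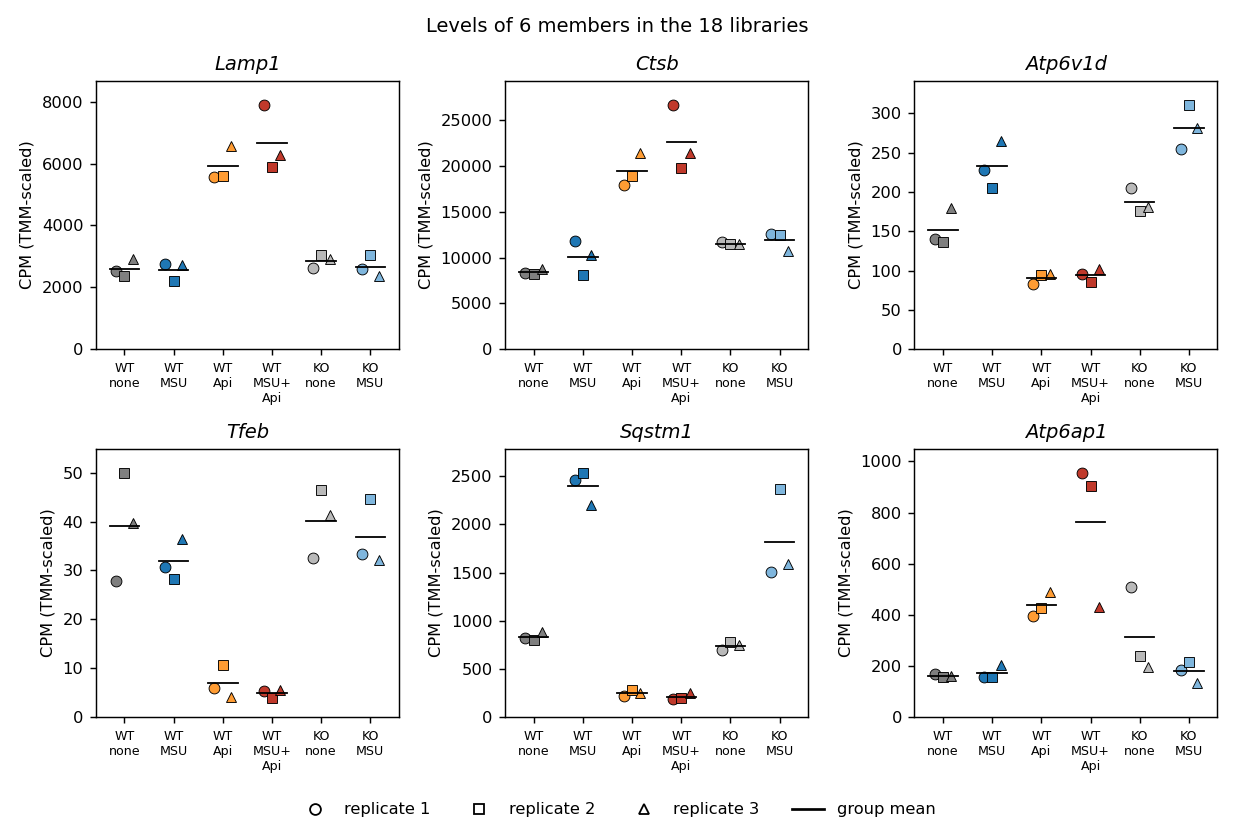
Levels of Lamp1, Ctsb, Atp6v1d, Tfeb, Sqstm1 and Atp6ap1 in the 18 libraries, in CPM on axes that start at 0, with marker shapes for replicates and a line for each group mean (Api, apigenin and KO, CD38KO). Lamp1 and Ctsb are high and Tfeb and Sqstm1 low in both apigenin groups, and Sqstm1 is highest in WT + MSU at 2205 to 2531 CPM.

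The comparison of classes inside each library does not depend on any scaling between libraries. The mean log2 FPKM of the 10 proteases exceeded that of the 8 V1 subunits by 3.68 to 4.22 in the 6 apigenin libraries and by 2.14 to 2.77 in the 6 WT libraries without it. The ranges did not overlap, and the 6 CD38KO libraries stood at 1.84 to 2.55. The V0 subunits exceeded the V1 subunits by 0.79 to 1.09 with apigenin, against -0.05 to 0.34 in WT without it and -0.38 to 0.09 in CD38KO. Without apigenin, the difference between proteases and V1 subunits was 2.60 to 2.77 in WT non-treated and 2.14 to 2.20 in WT + MSU. These class differences are descriptions, with no test.

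**Figure D4:**
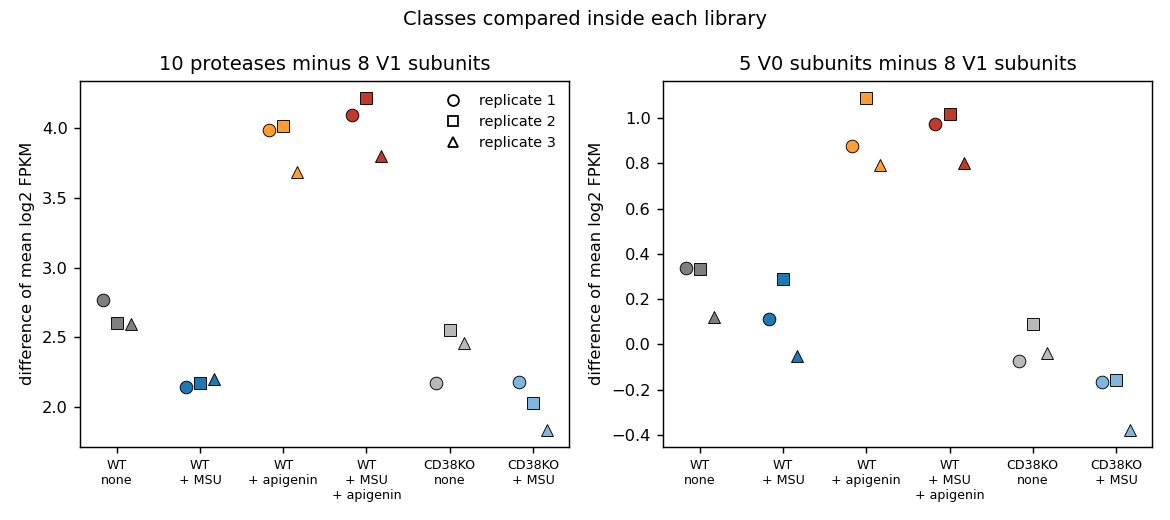
Difference of mean log2 FPKM between the proteases and the V1 subunits (left) and between the V0 and V1 subunits (right), one point per library with marker shapes for replicates. In both panels the 6 apigenin libraries form the upper cluster, at 3.68 to 4.22 on the left and 0.79 to 1.09 on the right.

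The arms were also compared singly. Each has its own control group, although the apigenin, MSU and knockout comparisons use the same WT libraries without apigenin and are therefore not independent of each other. Without MSU, 16 of 44 were called higher and 3 lower (13.1% and 22.2% of all genes). With MSU, 17 were called higher and 6 lower (18% and 25.8% of all genes). With the apigenin libraries grouped by the treatment tag, the counts were 16 and 3 without MSU and 18 and 7 with it. Among V1 subunits, the log2FC of Atp6v1h was -0.27 ± 0.28 without MSU and -1.18 ± 0.29 with it, and that of Atp6v1c1 was -0.29 ± 0.37 and -1.07 ± 0.38. The difference between the arms was not past the threshold for any gene of the 44 but Sqstm1.

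For Sqstm1 the interaction of MSU with apigenin was -1.76 ± 0.25 on the log2 scale (adjusted p = 0.00509), and 0.69% of all genes were called in that direction. The rise of Sqstm1 with MSU seen in WT was absent from the apigenin-treated groups, at 214, 280 and 252 CPM without MSU and 191, 197 and 247 CPM with it. Grouped by the treatment tag, the interaction was -1.29 (adjusted p = 0.0204). Comparing MSU with none in apigenin-treated WT called none of the 44 by edgeR or DESeq2, with 2 at an unadjusted p under 0.05 and 0.0582% of all genes past the adjusted threshold at any size.

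Other lysosomal genes were read from lists, beside 17.7% of all genes called higher and 26.1% lower, and 32.2% and 36.4% at any size. In a list of 30 further hydrolases and cofactors, all tested, 14 were called higher and none lower, and 26 rose at any size, with a median log2FC of 0.98. Under library totals 13 of the 30 rose, 1 fell and none was called, with a median of 0.28. Ppt1, the palmitoyl-protein thioesterase, rose by 1.46 ± 0.08, and Aga, the aspartylglucosaminidase, by 1.49 ± 0.15. Among 24 further membrane, transport and sorting genes, 15 rose and 4 fell, which turned to 4 and 8 under library totals. Gnptab, which encodes the phosphotransferase subunits that tag hydrolases for the lysosome, was among those that fell, at -1.19 ± 0.14. Among 19 tested genes of MiT/TFE control and nutrient sensing, 5 rose and 10 fell, with a median of -0.97 (4 and 14 under library totals). The falls included Mitf, another MiT/TFE factor (-1.17 ± 0.14), the folliculin partner gene Fnip1 (-2.64 ± 0.27) and Rraga, a Rag GTPase gene (-1.97 ± 0.10), whereas the Ragulator genes Lamtor1, Lamtor2 and Lamtor4 rose by 1.02 ± 0.12, 1.28 ± 0.18 and 1.34 ± 0.28. Of 21 autophagy genes, 5 rose and 8 fell, near the shares of all genes, and 2 rose and 13 fell under library totals. The autophagy receptor genes Optn (-1.99 ± 0.29) and Nbr1 (-2.15 ± 0.42) fell as Sqstm1 did. Of 4 tested V-ATPase subunits outside the 44, Tcirg1 fell by 0.41 on the log2 scale and 3 did not pass, and of 3 tested protease inhibitors Cst3, cystatin C, rose by 1.34 ± 0.16.

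The knockout comparisons asked whether loss of CD38 changed these genes. In non-treated cells none of the 44 passed by edgeR in either direction (0.798% of all genes were higher and 4.11% lower at any size), with 12 at an unadjusted p under 0.05. DESeq2 also called none with the fold threshold, and at any size it had Scarb2 lower (log2FC -0.42, adjusted p = 0.00451). The median log2FC of the 44 was 0.17, and for the 8 V1 subunits all values were above 0, with a median of 0.48. Under MSU, 1 of 44 was higher and none lower at any size (1.51% and 2.93% of all genes). This was Lgmn, at 1838, 1384 and 1518 CPM in CD38KO + MSU against 1029, 1009 and 1033 CPM in WT + MSU. The groups did not overlap, and the log2FC was 0.63 ± 0.14 (adjusted p = 0.0246). Lgmn passed in 20 of 28 alternative settings and reversed in 0. Library totals, limma and the groups of the contrast alone were among the 8 in which it did not pass. None of the 44 was called with the fold threshold under MSU, with 10 at an unadjusted p under 0.05, and DESeq2 called 2 higher, Ctsl and Atp6v1b2. The shares of all genes at an unadjusted p under 0.05 and by DESeq2 are not given here. The counts of 12, 10 and 2 are therefore not read as differences between the genotypes.

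The WT replicates bear on this comparison, because replicate 3 was the highest of its group for 35 of 44 genes in WT non-treated and for 21 of 44 in all 4 WT groups. The matching share of all genes is not given here. Replicate 3 also had the lowest TMM factor of each WT group, 1.16 beside 1.29 and 1.32 in non-treated WT. The part of that scaling in these ranks was not tested. Ctss, cathepsin S, chosen for description after its values were seen, was at 2015, 1994 and 4938 CPM in WT and 6133, 5006 and 6275 CPM in CD38KO without MSU. Under MSU it was at 2148, 1639 and 3830 CPM in WT and at 6932, 4654 and 6454 CPM in CD38KO. All CD38KO libraries were above all WT libraries, but the gap to WT replicate 3 was small in non-treated cells, and the log2FC of 0.96 ± 0.44 and 1.24 ± 0.45 did not pass (adjusted p = 0.339 and 0.132). With WT replicates 1 and 2 alone, 4 of 44 were called higher in non-treated cells (Ctss, Ctsl, Atp6v1b2 and Atp6v1c1) and 4 under MSU. Of all genes, 1.68% were called higher and 5.77% lower in non-treated cells, and 1.8% and 5.12% under MSU. With those libraries 10 of 44 rose at any size and none fell in each case, beside 3.63% of all genes higher and 6.3% lower in non-treated cells and 4.01% and 5.68% under MSU. With WT replicate 3 alone each WT group is 1 library and the spread comes from the CD38KO libraries, so that setting says little (no gene of the 44 passed, and 0.249% of all genes were higher in non-treated cells).

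Ctsl, cathepsin L, was at 1658, 1304 and 2339 CPM in non-treated WT, 4339, 2850 and 2990 CPM in non-treated CD38KO, 1010, 1312 and 2357 CPM in WT + MSU and 4916, 3086 and 4278 CPM in CD38KO + MSU. The genotypes did not overlap, with log2FC of 0.94 ± 0.37 and 1.39 ± 0.38 that did not pass (adjusted p = 0.227 and 0.0504). Atp6v1b2, the non-catalytic B subunit of V1, was at 632, 670 and 955 CPM in non-treated WT, 1577, 1243 and 1339 CPM in non-treated CD38KO, 583, 482 and 790 CPM in WT + MSU and 1461, 1102 and 1345 CPM in CD38KO + MSU. It too was separated by genotype, with log2FC of 0.88 ± 0.32 and 1.07 ± 0.32 that did not pass (adjusted p = 0.166 and 0.072). Beside these values, in libraries without apigenin, the summed fibroblast markers were at 574 to 3827 CPM in WT and 82.5 to 316 CPM in CD38KO. In the same libraries the summed neutrophil markers were at 174 to 293 CPM in WT replicates 1 and 2. They were at 8.22 to 14.3 CPM in WT replicate 3 and 8.56 to 22.9 CPM in CD38KO. The 3 strain genes divide these libraries in the same way, with 144 CPM or more only in WT replicates 1 and 2. Genotype and strain therefore cannot be told apart for WT replicates 1 and 2. The part of the marker genes in the differences between genotypes was not tested. The genes named for their roles did not pass between the genotypes either. The log2FC under MSU was 0.06 ± 0.17 for Lamp1, 0.24 ± 0.14 for Lamp2, 0.24 ± 0.18 for Ctsb, 0.58 ± 0.26 for Ctsd and 0.21 ± 0.30 for Tfeb. Tfe3 was at 0.18 ± 0.13, Gpnmb at 0.22 ± 0.34, Atp6v1h at 0.49 ± 0.28 and Sqstm1 at -0.40 ± 0.17 in that log2FC.

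**Figure D5:**
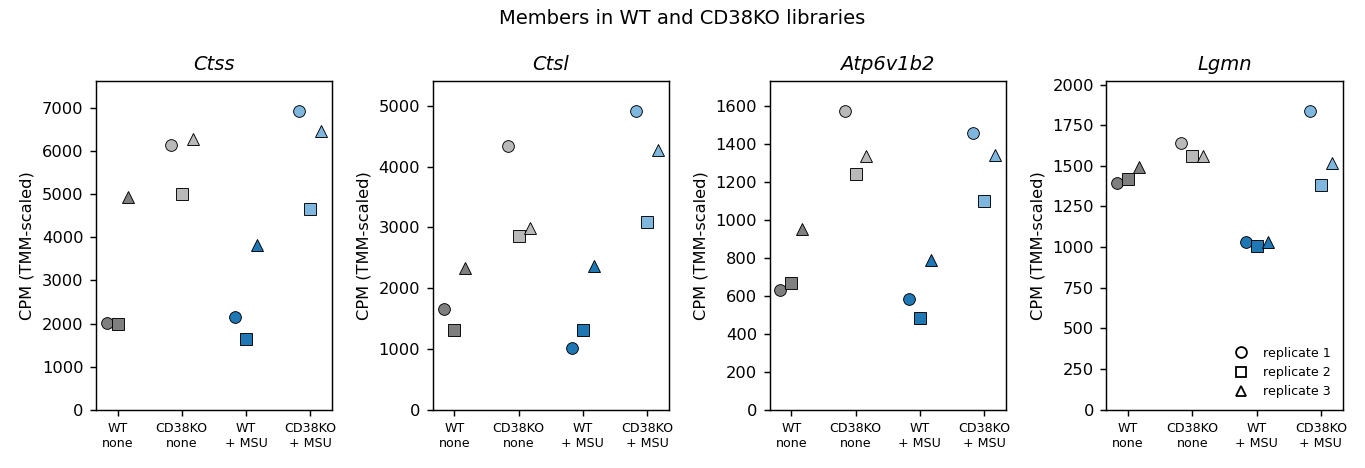
Levels of Ctss, Ctsl, Atp6v1b2 and Lgmn in WT and CD38KO libraries with and without MSU, in CPM on axes that start at 0, with marker shapes for replicates. For Ctss, WT replicate 3 (triangles, 4938 and 3830 CPM) lies nearer to CD38KO than WT replicates 1 and 2 do, whereas for Lgmn the 3 WT + MSU libraries lie together at 1009 to 1033 CPM.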

How the data were processed

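Poly(A) RNA libraries of TruSeq stranded type were sequenced. The authors deposited raw gene counts together with FPKM, their normalization for length and depth, in 1 table. Per the submitters' processing notes, reads went through HISAT2 and StringTie after cutadapt and FastQC, with edgeR also listed. Genome build and strand setting are not given in the sources used here. All 55450 gene IDs match GENCODE M21 (GRCm38), which gave positions. The second deposited table holds the authors' own log2 ratios and was not used. No column was left unassigned (0 columns).

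Deposited counts were fitted with edgeR 4.0.16 in R 4.3.3 (TMM, 1 quasi-likelihood fit of 6 groups, 12 residual degrees of freedom) for the 12025 genes reaching 1 FPKM in 3 or more libraries. CPM are counts scaled to the TMM-normalized total, and the SE is the log2FC divided by the square root of F. P-values were adjusted by Benjamini-Hochberg over all genes tested. The counts cover counting error only, which is small at 51058336 or more per library beside the spread between replicates. The test was checked on simulated data for MSU in WT only, with few genes changed and as many raised as lowered. That check does not cover the apigenin comparisons or their scaling. The 44 genes and all lists were chosen with earlier results of these data known.

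Values in every library were given for up to 4 called genes with the largest and 4 with the smallest log2FC in each main comparison, and for Tfeb, Tfe3, Sqstm1, Gpnmb, Lamp1, Lamp2, Ctsb, Ctsd and Atp6v1h, named for their roles. Scarb2, Ctss, Ctsl, Atp6v1b2, Sgsh and genes of the other lists were named after their values were seen.

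Alternatives were library totals, RLE factors, DESeq2 1.42.0, limma 3.58.1 on log2(FPKM + 0.5), no filter, filterByExpr, no fold threshold, the groups of a contrast alone, a replicate block, each library left out, the tag grouping, and WT replicate 3 or WT replicates 1 and 2 alone. In the 3 comparisons that involve apigenin groups, the deviations from the group means of same-numbered libraries had correlations of 0.142 to 0.625. Libraries numbered 1 and 2 also correlated across numbers, at 0.366 and 0.252 for apigenin alone. Those values were 0.072 and 0.346 for MSU in apigenin-treated WT, but 0.022 and -0.003 for apigenin under MSU. Whether the numbers pair libraries is thus not settled, and the main fit used no pairing. Other comparisons had at least 1 same-numbered pair at 0.081 or less.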

Additional observations from a re-analysis of the deposited data

Results flagged for a closer look

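The response of Sqstm1 to MSU differed between WT BMDMs without and with apigenin by a test of the difference itself. The interaction was -1.756 on the log2 scale (SE 0.25, adjusted p = 0.00509 by edgeR). Sqstm1 was higher in 3 of 3 WT + MSU libraries than in every WT non-treated library, and it was the one gene of the 44 past the threshold in either interaction test. No explanation was tested.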

How the results depend on the processing

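Each setting can also change how many of all genes are called, and those shares are not given beside the counts below. The counts therefore describe the 44 genes only. Called counts of the 44 genes under the other settings were as follows. With MSU in WT (1 in the main analysis) the count was 3 without the fold threshold, 2 with the contrast's groups alone, 0 with WT replicate 3 only and 2 with WT replicates 1 and 2 only, and for MSU in CD38KO (1) it was 2 without the fold threshold and 2 with WT replicates 1 and 2 only. For apigenin alone (19) it was 29 without the fold threshold, 7 with library totals and 8 with limma on log2(FPKM + 0.5). For apigenin under MSU (23) it was 14 with library totals, 14 with limma and 15 with WT replicate 3 only, and for the mean of both arms (23) it was 35 without the fold threshold, 10 with library totals and 10 with limma. For MSU in apigenin-treated WT (0) it was 1 with WT replicate 3 only. For CD38KO against WT non-treated (0) it was 3 with the replicate block and 4 with WT replicates 1 and 2 only, and under MSU (0) it was 1 without the fold threshold, 1 with library totals, 2 with DESeq2, 1 with limma, 3 with the replicate block and 4 with WT replicates 1 and 2 only. Leaving out each library in turn gave 1 to 2 for MSU in WT and 1 to 2 for MSU in CD38KO, the higher value in both without WT + apigenin replicate 3, 13 to 23 for apigenin alone, 21 to 26 under MSU, 21 to 24 for the mean of both arms and 0 to 2 for CD38KO against WT under MSU, with 2 without WT + apigenin replicate 3. The count under MSU was 1 without CD38KO + MSU replicate 2 or 3, or without replicate 3 of WT + MSU + apigenin, of WT + MSU or of non-treated WT.

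With WT replicate 3 only, each WT group is 1 library, assumed to vary like the CD38KO libraries that give the spread (4 residual degrees of freedom), so calls lost there say nothing of stability. Among genes that had passed, the directions that reversed were those of Atp6v0b under MSU (-0.053 with library totals), Atp6v1g1 (-0.082 and -0.037 for apigenin alone and -0.251 and -0.207 for the mean of both arms, with library totals and limma), Ctsz under MSU (-0.047 and -0.004) and Scarb2 (-0.286 and -0.265 for apigenin alone, and -0.012 with library totals for the mean of both arms). Of the genes that had not passed, 7 changed sign under library totals in the mean of both arms (Atp6v0c, Atp6v0d1, Atp6v1e1, Gpnmb, Naglu, Neu1 and Sgsh), 6 in apigenin alone and 5 under MSU. Library totals moved the median of all genes by more than any other scaling, to -0.75, and FPKM carries no factor of that kind either. The fall of Sqstm1 with apigenin held in 28 of 28 settings, its rise with MSU in WT in 27 of 28, the exception being WT replicate 3 only (log2FC 1.33, adjusted p = 0.252, 1 library against 1), and its interaction in 28 of 29 (-1.36, adjusted p = 0.536, with that setting, where another gene, higher instead of lower, made up the called count of 1). The rise of Atp6v1d with MSU held in 22 of 28 settings in WT and 20 of 28 in CD38KO. The fall of Scarb2 with MSU in WT held in 22 of 28, and the higher Lgmn in CD38KO under MSU in 20 of 28. The replicate block changed no other called count by more than 1.5 times, and same-numbered libraries of the 2 genotypes had correlations of -0.236 to 0.172, so their numbers pair nothing. Depth limits few of these genes: Tfeb was at 3.97 CPM or more in every library, and the lowest single value was that of Sgsh, 0.670 CPM in WT + apigenin replicate 3.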
